A study of Rattus norvegicus with 6 samples.

Results

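The kidney of 7-day-old homozygous Cy/Cy rats was compared with that of heterozygous Cy/+ rats of the same age, using the 1 array of each that carries these labels, 2 of the 6 arrays of the series. All animals were of the Han:SPRD strain. Kidney RNA had been pooled, and the sources used here do not give the number of animals in a pool. On each array of 60-base oligonucleotide probes the mutant pool was labelled with Cy5 and a 7-day +/+ pool with Cy3, without a dye swap. The other 4 arrays carried +/+ at 7 days and +/+, Cy/+ and Cy/Cy at 3 days, each against a +/+ pool of its own age. The 3-day Cy/+ and Cy/Cy arrays were used to set the same difference beside the 7-day one, and the arrays labelled +/+ were not used. All 3 arrays of an age lay on 1 slide with each genotype at a fixed position, so neither genotype and position nor age and slide can be told apart.

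The Cy mutation of Han:SPRD rats is a missense change in Anks6, which encodes an ankyrin repeat and sterile alpha motif protein of the primary cilium of tubule cells. Heterozygotes develop a slowly progressing polycystic kidney disease of the adult, whereas homozygotes have massively enlarged cystic kidneys and die in the first weeks of life. At the ages studied here the rat kidney is still forming and maturing its nephrons, and the segments of the tubule carry distinct transporters and enzymes by which they can be recognised. Pooled tissue cannot separate fewer cells of a type from less RNA per cell.

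Each value below is a log2 ratio of the mutant pool to its +/+ reference, or the Cy/Cy ratio minus the Cy/+ ratio, called the difference and positive where Cy/Cy was higher. With 1 array for each genotype no difference between genotypes could be tested, and probes of 1 gene repeat the measurement on an array, not the genotype. The 7-day arrays had 43379 spots other than controls, of which 69% (Cy/+) and 67.8% (Cy/Cy) were well above background in Cy5, at a median signal of 172 and 176 against a background of 44 and 46. A set of 11761 named genes was measured, each by its brightest probe. Defining markers of the kidney were present on both arrays, among them Lrp2 and Cubn of the proximal tubule, Umod and Slc12a1 of the thick ascending limb, Slc12a3 of the distal convoluted tubule, Aqp2 of the collecting duct and Nphs1 of podocytes.

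The 2 kidneys differed little over most of the transcriptome. The difference had a median of -0.01 and an SD of 0.19 over the 11761 genes, with 5% of genes below -0.28 and 5% above 0.30. At least 1.5-fold apart were 146 genes (1.24%), 86 of them higher in Cy/Cy (0.731%) and 60 lower (0.51%), and 18 (0.153%) were at least 2-fold apart. The counts given for gene lists below stand beside these shares over all genes. The share of higher genes among those at least 1.5-fold apart depended on the scaling. It was 58.9% here, 47.2% with the deposited log ratios (313 higher and 350 lower) and 36.5% with median centring in place of loess (81 higher and 141 lower). Over all probes that passed the filter, named or not, 196 of 28574 (0.686%) were higher and 114 (0.399%) lower.

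The repeats available within the arrays gave a measure of part of the technical spread, since they share the pool, labelling and hybridisation of their array. Across 3024 genes with at least 2 probes, the SD of the difference over probes had a median of 0.08 and a 95th percentile of 0.26, and 63.7% of these genes had all probes on the same side of 0. The 202 probes spotted more than once had a median SD between spots of 0.05. The reference channel, which held a 7-day +/+ pool on both arrays, differed between them with an SD of 0.11 over genes, from 0.19 in the dimmest 2941 genes to 0.04 in the brightest 2940. The labels do not say whether this was the same RNA on both arrays. The mutant channel differed with an SD of 0.22, at 0.25 in the same dimmest genes and 0.17 in the brightest. The software's own error model gave a larger error, with a median of 0.29 for a difference.

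Most genes that separated the 2 kidneys lay farther from the +/+ reference in Cy/+ than in Cy/Cy. Of the 86 genes higher in Cy/Cy, the Cy/+ ratio was the farther from 0 in 70, with a median ratio of -0.64 in Cy/+ and 0.10 in Cy/Cy. Of the 60 genes lower in Cy/Cy, it was the farther in 59, with medians of 1.00 and 0.23. Over all genes the ratios spread with an SD of 0.25 in Cy/+ and 0.17 in Cy/Cy. Genes picked for a wide difference therefore tend to lie farther out in the wider Cy/+, and the share over all genes was not counted. The 16 genes whose Cy/Cy ratio was the farther from 0 among those higher in Cy/Cy included Alb, Ahsg, Kcna2, Rhox5 and the adipose transcripts Adipoq, Car3 and Retn, described below.

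**Figure D1:**
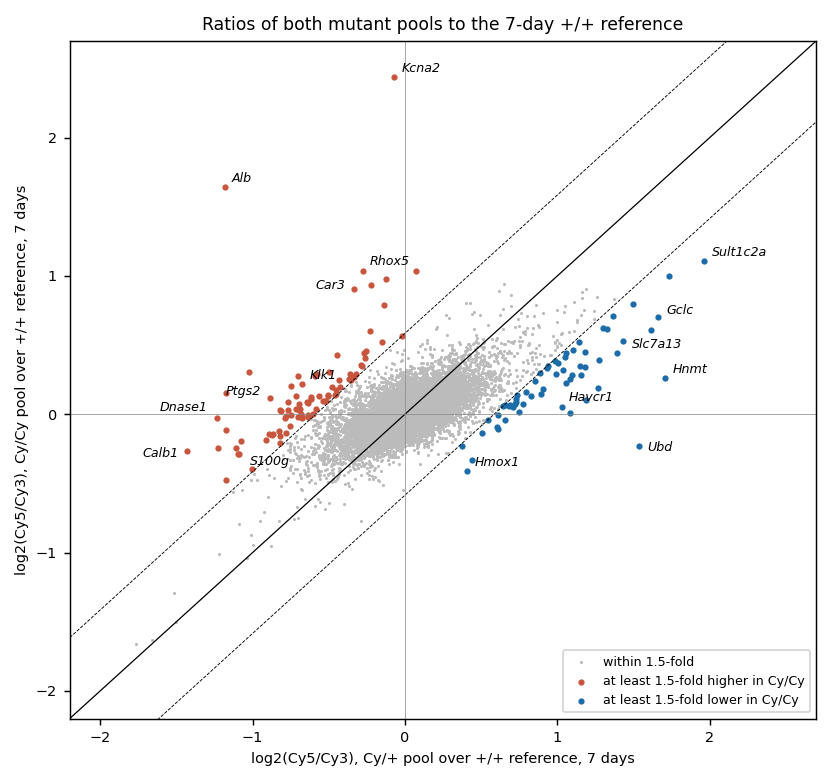
Log2(Cy5/Cy3) of the Cy/+ pool (x axis) against that of the Cy/Cy pool (y axis) at 7 days, 1 point per gene (11761 genes, 1 array per axis); the solid line marks equal ratios and the dashed lines a 1.5-fold difference. The 60 genes lower in Cy/Cy lie mostly to the right of 0 on the x axis and close to 0 on the y axis, and most of the 86 higher genes lie to the left of 0.

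Anks6 itself, the gene that carries the mutation, did not separate the kidneys. Its 1 probe gave ratios of 0.16 in Cy/+ and 0.16 in Cy/Cy, and a 3-day difference of 0.18. The mutation changes a single residue, so the level does not check the genotype labels. None of the 22 measured genes of cystic disease and the cilium was 1.5-fold apart (median 0.03, range -0.42 to 0.32). The farthest were Glis2, a zinc finger protein of nephronophthisis (0.83 in Cy/+, 0.41 in Cy/Cy, difference -0.42), and Bicc1, an RNA-binding protein whose loss gives cysts (0.23 and -0.13, difference -0.36).

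Transcripts of the distal convoluted and connecting tubule were among those higher in Cy/Cy. Of 14 measured genes 3 were at least 1.5-fold higher and 0 lower, with a median of 0.13 against -0.01 over all genes. Above 0 were 10 of them and below 0 were 4, against 5688 and 6073 of all genes. Calb1, calbindin, which buffers and carries calcium in these cells, had a ratio of -1.43 in Cy/+ and -0.27 in Cy/Cy (difference 1.16, 2.23-fold). S100g, a smaller calcium-binding protein of the same cells, stood at -1.09 and -0.29 (difference 0.80), and Klk1, the tissue kallikrein that connecting tubule cells release into urine, at -0.67 and 0.22 (difference 0.89). By these probes both calcium-binding proteins were below the reference in both kidneys, and nearer to it in Cy/Cy. Slc12a3, the thiazide-sensitive cotransporter, was at -0.49 and 0.02 (difference 0.51), short of 1.5-fold. At 3 days Calb1 (1.31) and S100g (0.94) were again at least 1.5-fold higher in Cy/Cy, Klk1 (0.45) and Slc12a3 (0.06) were not, and Trpm7 and Trpv6 lay at -0.67 and -0.61 against -0.26 and 0.14 at 7 days.

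The 4 probes of Calb1 did not give 1 answer. The probes at chr5:30475783-30475991 and chr5:30479753-30479812 of build rn3 gave differences of 0.98 and 1.16, and the probes at chr5:30480258-30480317 and chr5:30480350-30480409 gave -0.17 and -0.22 (SD over the 4 probes 0.73). The second pair lay above the reference in both kidneys, at 0.52 and 0.35 for the first of them, which was spotted 10 times, and at 0.50 and 0.28 for the other. The split was the same at 3 days, with 0.68 and 1.31 for the first pair and -0.90 and -0.69 for the second. The value given for Calb1 above, by which it was counted as at least 1.5-fold higher, is that of the brightest probe. The median over its probes was 0.41, short of that fold.

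Most measured kallikrein genes that neighbour Klk1 were higher in Cy/Cy. This group was chosen after its values had been seen, and it includes Klk1. All 8 measured members were above 0 and 6 were at least 1.5-fold higher, with a median of 0.83, a median ratio of -0.54 in Cy/+ and 0.26 in Cy/Cy, and a median of 0.39 at 3 days, where 0 members reached 1.5-fold and Klk1c9 lay on the other side at -0.45. Klk1b3 had ratios of -0.70 and 0.27 (difference 0.98). Klk1c10 had probes at 0.87 and 0.74, Klk1c8 stood at 0.87, Klk1c2, tonin, at 0.80, Klk1c9 at 0.60 and Klk1c6 at 0.50. Klk1c12 was at 0.05, with ratios of 0.04 and 0.09, and was not well above background in Cy/Cy. The genes are near-identical copies on chromosome 1, and their probes are shown because parts of some of them are shared letter for letter. Whether the 8 values are 8 separate measurements was not tested. Capitals mark runs of at least 15 bases that a probe shares with another probe of this set.
Klk1: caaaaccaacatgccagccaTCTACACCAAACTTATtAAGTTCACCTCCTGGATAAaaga
Klk1b3: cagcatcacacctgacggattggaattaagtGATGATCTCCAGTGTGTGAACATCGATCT
Klk1c10 (chr1:94458840-94458899): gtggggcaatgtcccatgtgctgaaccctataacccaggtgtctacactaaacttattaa
Klk1c10 (chr1:94491525-94491680): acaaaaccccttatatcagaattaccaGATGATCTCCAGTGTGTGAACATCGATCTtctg
Klk1c12: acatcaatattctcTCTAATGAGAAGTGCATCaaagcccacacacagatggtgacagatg
Klk1c2: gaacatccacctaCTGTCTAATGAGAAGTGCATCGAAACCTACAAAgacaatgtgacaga
Klk1c6: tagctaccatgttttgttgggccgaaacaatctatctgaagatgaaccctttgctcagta
Klk1c8: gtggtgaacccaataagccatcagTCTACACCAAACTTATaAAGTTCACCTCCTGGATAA
Klk1c9: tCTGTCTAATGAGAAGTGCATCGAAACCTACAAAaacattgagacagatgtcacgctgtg

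The longest run common to a pair of these probes was 33 bases, between Klk1c2 and Klk1c9, and 29 bases joined Klk1b3 to the probe of Klk1c10 at chr1:94491525-94491680. Klk1 and Klk1c8 shared a run of 19 bases and a shorter run next to it, parted by a single base, which makes 35 capitals in each. Their differences were 0.89 and 0.87. Klk1c12 shared 18 bases with Klk1c2 and with Klk1c9. Klk1c6 and the probe of Klk1c10 at chr1:94458840-94458899 had no shared run of that length, and stood at 0.50 and 0.74. Cross-hybridisation between the copies was not tested.

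No thick ascending limb gene reached 1.5-fold. Of 15 measured genes 13 were above 0, as were 5688 of all 11761 genes, with a median of 0.24 at 7 days and 0.26 at 3 days, where 3 were at least 1.5-fold higher. Slc12a1, the cotransporter that loop diuretics block, was at -0.43 in Cy/+ and -0.12 in Cy/Cy. Egf, the growth factor made in this segment, was at -0.09 and 0.32 (difference 0.42). With median centring the list's median was 0.13. Intercalated cell genes had a median of 0.12 and 1 of 16 past 1.5-fold, the bicarbonate exchanger Slc4a1 (-0.82 and -0.21), whose second probe gave -0.09. Collecting duct principal cell genes had 0 of 16 past 1.5-fold and a median of 0.11, which turned to -0.00 with median centring.

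Several transporters and enzymes of the proximal straight segment were lower in Cy/Cy. Of 13 measured genes 4 were at least 1.5-fold lower and 0 higher, with a median of -0.13. Slc7a13, the aspartate and cystine transporter of the S3 segment, stood at 1.43 in Cy/+ and 0.53 in Cy/Cy (difference -0.90). Slc23a3, a member of the ascorbate transporter family, was at 1.27 and 0.39 (-0.88), Aadat, an aminotransferase of the kynurenine pathway, at 1.15 and 0.28 (-0.87), and Slc22a24, an anion transporter, at 1.33 and 0.62 (-0.71). All 4 were above the reference in both kidneys and more so in Cy/+. Slc7a13 (-0.98) and Aadat (-1.01) were at least 1.5-fold lower at 3 days too.

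The wider proximal tubule list divided. Of 33 measured genes 23 were below 0, against 6073 of all 11761 genes, with a median of -0.09. Only 1, the endocytic receptor Cubn, was at least 1.5-fold lower (0.71 in Cy/+, 0.05 in Cy/Cy, difference -0.66). Its partner Lrp2, megalin, was at 0.76 and 0.25 (-0.51), short of that fold. On the other side lay Miox, the inositol oxygenase (-0.49 and 0.10, difference 0.58), and Slc5a2, the early-segment glucose transporter (-0.05 and 0.45, difference 0.50). The brush border peptidase Mme was 1.5-fold lower in Cy/Cy at 1.06 and 0.44 (-0.61), but at -0.51 from Cy5 alone, and Ace was short of that fold at 0.86 and 0.33 (-0.53). Of 26 organic ion transporters 3 were at least 1.5-fold lower and 0 higher (median -0.09). These were Slc22a24 and the drug efflux pumps Abcb1a (-0.61) and Abcb1b (-0.62), and Abcb1b was not well above background in Cy/Cy.

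Conjugation enzymes gave the lowest median of the 44 lists. Of 12 measured sulfotransferases and glucuronosyltransferases 4 were at least 1.5-fold lower in Cy/Cy and 0 higher, with a median of -0.28 at 7 days and -0.29 at 3 days. When dim probes were not filtered out the median was -0.07. Sult1c2a had a ratio of 1.96 in Cy/+ and 1.11 in Cy/Cy (difference -0.86), and its 3 probes ranged from -0.86 to -0.64. The neighbouring Sult1c2 stood at 1.496 and 0.795 (-0.70), with 3 probes from -0.70 to -0.44. All 6 probes therefore lay on the same side. The only run of at least 15 bases shared between them was the one of 21 bases in capitals here, which joins 1 probe named for each gene.
Sult1c2: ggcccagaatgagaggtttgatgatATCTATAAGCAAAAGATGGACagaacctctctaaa
Sult1c2a: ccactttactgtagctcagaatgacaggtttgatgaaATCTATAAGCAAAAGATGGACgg

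These 2 probes gave differences of -0.44 for Sult1c2 and -0.64 for Sult1c2a. On build rn3 the Sult1c2a probe shown (chr9:996120-996179) lies between the Sult1c2 probes at chr9:994117-994309 and chr9:997621-997680. The Sult1c2 probe shown lies apart from them, at chr9:591102-591161. Which gene each of the probes shown measures was not tested. The remaining 4, without a shared run of that length, ranged from -0.86 to -0.62. Ugt1a1, the bilirubin glucuronosyltransferase, was at 0.93 and 0.33 (-0.60), and at -0.54 without background correction. Ugt2b7 was at 0.79 and 0.16 (-0.64) and not well above background in Cy/Cy, which makes its Cy5 level at least 1.59-fold higher in Cy/+.

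Glutathione synthesis and oxidative stress genes were lower in Cy/Cy in 2 of 30 cases and higher in 0, with a median of -0.14. Gclc, the catalytic subunit of the enzyme that limits glutathione synthesis, was at 1.66 in Cy/+ and 0.70 in Cy/Cy (-0.96, 1.94-fold), and its 3-day difference was -1.47. Hmox1, the haem oxygenase, was at 0.41 and -0.41 (-0.82), above the reference in Cy/+ and below it in Cy/Cy. Gstm5 lay on the other side at -0.73 and -0.24 (0.49).

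Some markers of tubular injury and dedifferentiation were lower in the homozygous than in the heterozygous kidney. Of 29 measured genes 3 were at least 1.5-fold lower and 0 higher, against 0.51% and 0.731% of all genes. Below 0 were 23 of them, against 6073 of all 11761 genes, and the median was -0.15. Havcr1, the kidney injury molecule of damaged proximal tubules, was at 1.03 in Cy/+ and 0.06 in Cy/Cy (-0.97, 1.96-fold). Spp1, osteopontin, was at 0.99 and 0.29 (-0.70). At 3 days 7 of the list's genes were at least 1.5-fold lower in Cy/Cy, with a median of -0.22. Spp1 was among the lower at -1.34, but Havcr1 was above the reference in both 3-day kidneys, at 1.35 and 1.13 (difference -0.22). Vcam1, an adhesion molecule, was higher in Cy/Cy at -0.56 and -0.13 (0.43).

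Of 40 measured cell cycle genes 2 were at least 1.5-fold lower in Cy/Cy and 0 higher. Below 0 were 33 of them, against 6073 of all 11761 genes, and the median was -0.21 at 7 days and -0.12 at 3 days. The median ratio to the reference was 0.24 in Cy/+ and 0.05 in Cy/Cy. Rrm2, the ribonucleotide reductase subunit, was at 1.06 and 0.22 (-0.83, second probe -0.36) and Aurkb, the mitotic kinase, at 0.73 and 0.11 (-0.62, second probe -0.21). Mki67, the proliferation antigen, was at 0.36 and -0.11 (-0.47), short of 1.5-fold. In the opposite direction Cdkn1c, the cyclin-dependent kinase inhibitor p57, was at -1.22 in Cy/+ and -0.24 in Cy/Cy (0.98). Its 4 probes gave 0.98, 0.77, 0.70 and 0.64 (SD 0.15), all past 1.5-fold, and from 1.05 to 1.43 at 3 days. It was the only 1 of 13 CDK inhibitors at least 1.5-fold apart (median -0.01).

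Of 29 measured cholesterol and lipid synthesis genes 1 was at least 1.5-fold lower and 0 higher. Below 0 were 25 of them, against 6073 of all 11761 genes, and the median was -0.21. The gene past 1.5-fold was Insig1, the sterol sensor that retains the lipid synthesis regulators in the endoplasmic reticulum, at 0.75 in Cy/+ and 0.01 in Cy/Cy (-0.73). Its 4 probes ranged from -0.95 to -0.57 (SD 0.15). Me1, malic enzyme, was at 1.02 and 0.50 (-0.52), short of 1.5-fold. At 3 days the list's median was -0.23. The median over all genes was -0.01 at each age.

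**Figure D2:**
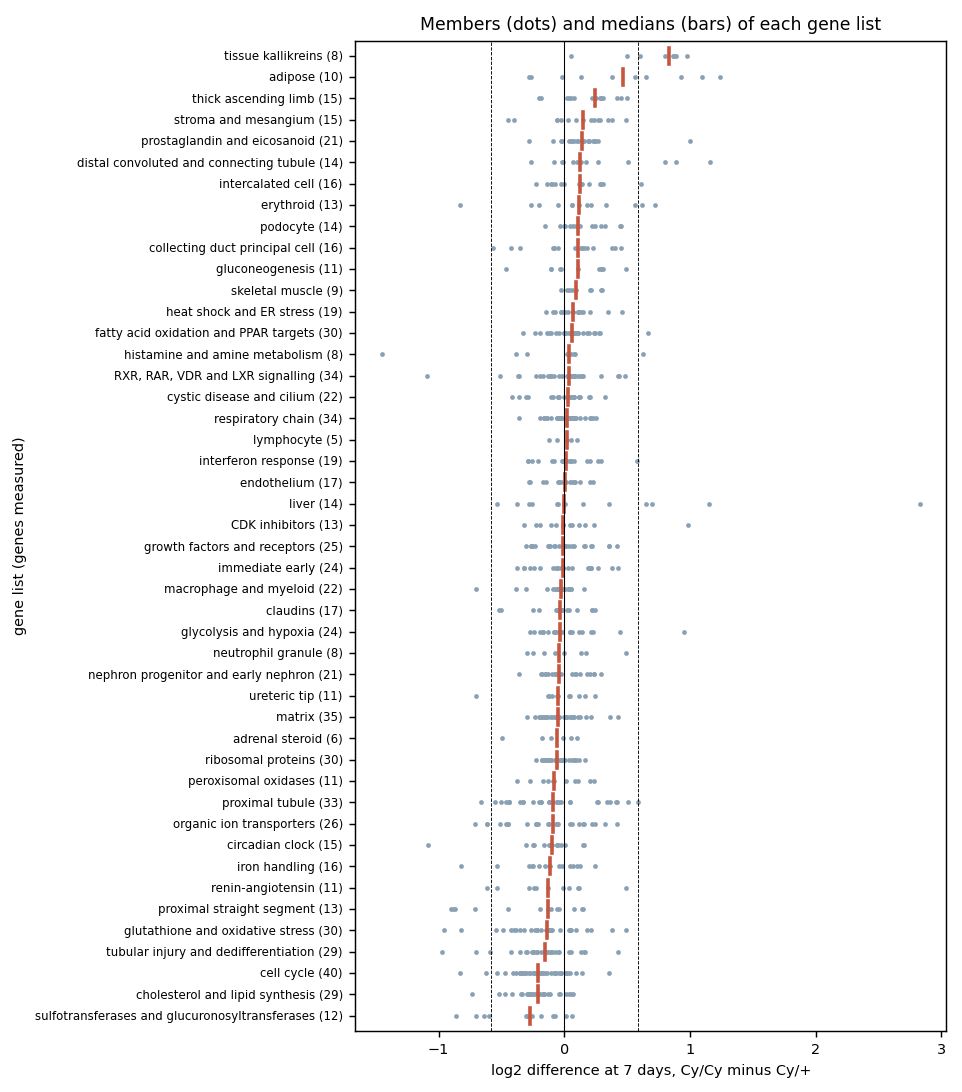
Log2 difference at 7 days (x axis, Cy/Cy minus Cy/+) of each measured member (dots) and its median (bar) for 44 gene lists and for the kallikrein and circadian clock lists added after the values had been seen; dashed lines mark 1.5-fold and n is in brackets. Medians run from -0.28 for the conjugation enzymes to 0.83 for the kallikreins, and most members lie within 1.5-fold.

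Alb, albumin, and Kcna2 were the highest genes in Cy/Cy, and their order depended on the processing. With the deposited log ratios Kcna2 was at 6.30 and Alb at 3.37. Alb had a ratio of -1.18 in Cy/+ and 1.64 in Cy/Cy by its brightest probe (difference 2.83, 7.09-fold). Its other 2 probes, not well above background in Cy/+, gave 0.50 and 0.41, and the 3-day difference was 0.02. Further liver transcripts followed unevenly. Ahsg, the plasma glycoprotein fetuin-A, had 2 probes at 1.15 and 0.85 and was not well above background in Cy/+, so its Cy5 level was at least 2.41-fold higher in Cy/Cy. F2, prothrombin, was at 0.70 and Apoa1, the main protein of high-density lipoprotein, at 0.65. Of the 14 liver genes measured 4 were at least 1.5-fold higher, 7 were below 0, and the median was 0.00. Their summed Cy5 signal was 10624 in Cy/+ and 10750 in Cy/Cy, and the liver urea cycle enzyme Cps1 was well above background only in Cy/+. The part of liver RNA in these values was not tested.

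Adipose transcripts included 4 that were higher in Cy/Cy at 7 days and lower at 3 days. Of 10 measured genes 4 were at least 1.5-fold higher and 0 lower at 7 days (median 0.47), and at 3 days 9 were at least 1.5-fold lower and 0 higher (median -1.40). Adipoq, the fat cell hormone adiponectin, was at -0.12 in Cy/+ and 0.97 in Cy/Cy at 7 days, and at 2.84 and 0.69 at 3 days. Car3, a carbonic anhydrase abundant in fat and muscle, was at -0.33 and 0.91 and then at 3.04 and 0.57, Retn, resistin, had differences of 0.93 and -1.49, and Cfd, adipsin, 0.65 and -1.0002. The list's summed Cy5 signal was 2500 and 3596 at 7 days against 22803 and 7086 at 3 days. Plin1, the coat protein of fat droplets, was not well above background in either 7-day kidney. The part of fat around the kidney in these values was not tested.

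Single genes of other functions were also among the highest. Kcna2, a voltage-gated potassium channel, was at -0.07 in Cy/+ and 2.44 in Cy/Cy (difference 2.51), but it was not well above background in Cy/+ (at least 5.34-fold higher in Cy/Cy), rested on 1 spot of 1 probe and had a software error of 1.94. Its 3-day difference was 0.12. Spink1l, a trypsin inhibitor, stood at -1.03 and 0.31 (1.33) and the related Spink1 at -0.82 and 0.03 (0.85). By these probes both were again higher in Cy/Cy at 3 days (1.61 and 1.03). A second probe of Spink1, not well above background in Cy5 on either 7-day array, gave 0.25 at 7 days and -1.38 at 3 days. Dnase1, the secreted nuclease that is abundant in kidney, was at -1.24 and -0.03 (1.21) against 0.04 at 3 days. Ptgs2, cyclooxygenase-2 of the macula densa, was at -0.89 and 0.11 (1.00) by a probe spotted 10 times, and at -0.15 by a second probe that was not well above background in Cy/+. Its 3-day difference was 1.31.

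The remaining high genes were Dhrs2l1 at -1.17 and 0.15 (1.33), Rhox5, an X-linked homeobox gene, at -0.28 and 1.04 (1.32), and Rimbp2, whose 3 probes ranged from 0.27 to 1.06. Among genes with at least 3 probes all on the same side, Ctsa, the lysosomal cathepsin A (0.39 to 0.71), Chordc1, a partner of the chaperone Hsp90 (0.29 to 0.71), Sfrp2, a secreted Wnt antagonist (0.43 to 0.62), and Epha4, an ephrin receptor (0.25 to 0.53), followed Rimbp2 and Cdkn1c in order of their median.

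**Figure D3:**
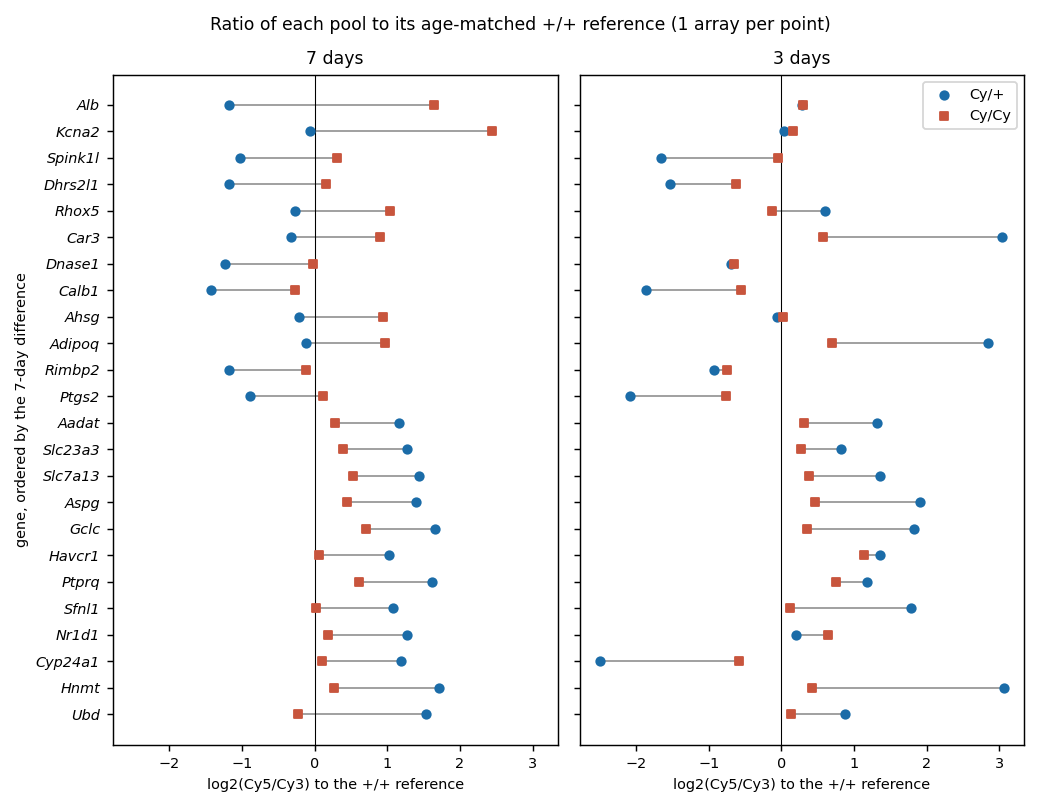
Log2(Cy5/Cy3) to the +/+ reference (x axis) of Cy/+ (circles) and Cy/Cy (squares) at 7 days (left) and 3 days (right) for the 12 highest and 12 lowest genes by the 7-day difference, 1 array per point. At 7 days the Cy/+ circle lies farther from 0 than the Cy/Cy square for all 12 of the lowest genes; for Cyp24a1, Nr1d1, Car3, Adipoq and Rhox5 the order of the genotypes is turned at 3 days.

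Ubd and Hnmt were the lowest genes in Cy/Cy, and their order depended on the processing. With the deposited log ratios Hnmt was at -3.95 and Ubd at -1.94. Ubd, a ubiquitin-like modifier also called FAT10 and induced by inflammatory cytokines, was at 1.53 in Cy/+ and -0.23 in Cy/Cy (difference -1.76, 3.39-fold), and -0.73 at 3 days. The interferon response list had 0 of 19 genes past 1.5-fold (median 0.01), and macrophage and myeloid genes had 1 of 22, which is Spp1, with a median of -0.03. Defining macrophage markers were level at 7 days (Cd68 -0.06, C1qa 0.04, Csf1r -0.04), while the list's 3-day median was -0.45 with 5 genes at least 1.5-fold lower. Hnmt, which methylates histamine, was at 1.71 and 0.26 (-1.45) and not well above background in Cy/Cy, so its Cy5 level was at least 3.25-fold higher in Cy/+. Ccl20, a chemokine, was at 1.15 and 0.35 (-0.80).

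Cyp24a1, the enzyme that inactivates vitamin D, was at 1.19 in Cy/+ and 0.10 in Cy/Cy at 7 days (difference -1.09). Its second probe gave -0.80. At 3 days the order was the opposite, with -2.50 in Cy/+ and -0.58 in Cy/Cy (1.92). It was the only 1 of 34 genes of the RXR, RAR, VDR and LXR list past 1.5-fold at 7 days (median 0.03). Cyp26b1, which degrades retinoic acid, was at -0.51 at 7 days and 0.84 at 3 days, short of 1.5-fold at 7 days.

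The other genes of the lowest 12 were Nr1d1, the nuclear receptor Rev-erb alpha of the clock (1.27 and 0.19, -1.08), Sfnl1 (1.08 and 0.01, -1.07), Ptprq, a receptor phosphatase (1.62 and 0.61, -1.01), and the asparaginase Aspg (1.39 and 0.44, -0.95). Of genes with at least 3 probes all on the same side, the lowest besides Insig1 and the sulfotransferases was Plek2, a pleckstrin-family protein of the cytoskeleton, whose 3 probes gave -0.67, -0.62 and -0.61 (SD 0.03). Pgm3, of UDP-N-acetylglucosamine synthesis (-0.55 to -0.44), and Angpt2, the vascular growth factor (-0.59 to -0.43), followed. Of the 60 lower genes 19 had at least 2 probes, and in all 19 every probe was below 0. Of the 86 higher genes 26 had at least 2 probes, and in 21 of them every probe was above 0. The probe by which a gene was called is among those counted. Over all 3024 genes with at least 2 probes, 63.7% had every probe on the same side of 0. Only 5 of the 19 and 4 of the 26 had every probe past 1.5-fold.

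**Figure D4:**
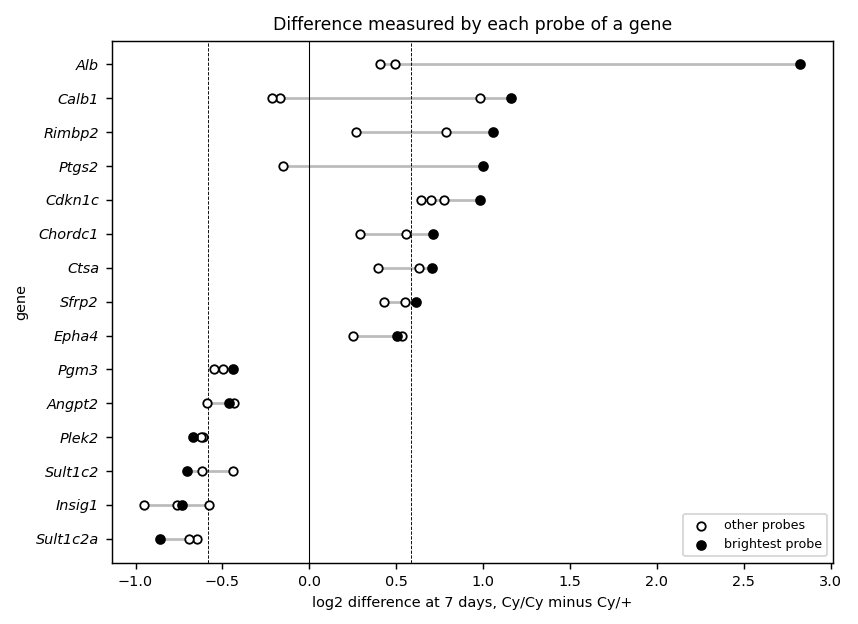
Log2 difference at 7 days (x axis) given by each probe of genes with several probes, with the brightest probe filled and dashed lines at 1.5-fold. The probes of Cdkn1c, Plek2, Insig1 and Sult1c2a lie close together and on 1 side, while those of Alb, Calb1 and Ptgs2 lie far apart.

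Several sets of transcripts had no member, or a single member, 1.5-fold apart. Nephron progenitor and early nephron genes had 0 of 21 past 1.5-fold (median -0.04), podocyte genes 0 of 14 (0.11), matrix genes 0 of 35 (-0.05), endothelial genes 0 of 17 (0.01) and stromal and mesangial genes 0 of 15 (0.15). The respiratory chain (0 of 34, median 0.02), ribosomal proteins (0 of 30, -0.06), immediate early genes (0 of 24, -0.01), claudins (0 of 17, -0.03), growth factors and receptors (0 of 25, -0.01), heat shock and endoplasmic reticulum stress (0 of 19, 0.07), gluconeogenesis (0 of 11, 0.11) and peroxisomal oxidases (0 of 11, -0.08) were alike in this. Among ureteric tip genes 1 of 11 was lower, the receptor Ret of branching morphogenesis, at 0.66 and -0.04 (-0.70) by its brightest probe and down to -0.08 by its other probes. Fatty acid oxidation genes had 1 of 30 higher, Fabp1 (0.67, second probe 0.12), glycolysis and hypoxia genes 1 of 24, Ankrd37 (-0.75 and 0.20, 0.95), and prostaglandin genes 1 of 21, Ptgs2. Of the prostaglandin genes 17 were above 0 and 4 below (median 0.14), and of the podocyte genes 11 and 3. Over all genes these were 5688 and 6073. With 1 array each, a fold short of 1.5 does not show that the kidneys were equal.

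Transcripts of blood cells were mixed. Of 13 erythroid genes 2 were at least 1.5-fold higher in Cy/Cy, the globin chaperone Ahsp (-0.87 and -0.15, 0.72) and Hbb-b1 (-0.52 and 0.10, 0.62), and 1 was at least 1.5-fold lower. Hbb was at -1.13 and -0.56. The list's summed Cy5 signal was 58444 in Cy/+ and 70023 in Cy/Cy. Hbb-b1 was at 0.25 from Cy5 alone, and globin genes are near-identical copies whose probes may not tell them apart. Cd3e of lymphocytes, Mpo and Ngp of neutrophil granules and Cyp11b1 of the adrenal cortex were not well above background in either 7-day kidney, and the skeletal muscle list had 0 of 9 past 1.5-fold (median 0.10).

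The 3-day pair shares no array with the 7-day pair, and their differences were weakly related over genes (r = 0.22, rho = 0.20 over 11754 genes, which are not independent and share the probe and the way the arrays were arranged). The 3-day difference was the wider, with an SD of 0.28, and at least 1.5-fold apart were 140 genes higher (1.19%) and 281 lower (2.39%). Over all genes 55.4% had the same sign at both ages. Of the 60 genes lower at 7 days 49 were below 0 at 3 days, 26 were at least 1.5-fold lower at both ages (0.221% of all genes) and 1, Cyp24a1, was at least 1.5-fold higher at 3 days. Of the 86 higher genes 55 were above 0 at 3 days, 12 were at least 1.5-fold higher at both ages (0.102%) and 7 were at least 1.5-fold lower at 3 days. The genes lower at both ages by the widest margin, each by its brightest probe, were Hnmt, Gclc, Sfnl1, Aspg, Slc7a13, Aadat, Ccl20 and Slc34a2. Slc34a2, the phosphate transporter of lung and gut epithelia, stood at -0.74 and -0.80, and its second probe gave -0.37 and -0.51, short of 1.5-fold. The genes higher at both ages, each by its brightest probe, were Spink1l, Calb1, Ptgs2, Cdkn1c, Dhrs2l1, Spink1, S100g and Armh4 (0.77 and 0.91). The Calb1 probes at chr5:30480258-30480317 and chr5:30480350-30480409 were lower in Cy/Cy at 7 days (-0.17 and -0.22) and at 3 days (-0.90 and -0.69). The second probe of Ptgs2 gave -0.15 and 0.03, and that of Spink1, which did not pass the filter, 0.25 and -1.38. Genes at least 1.5-fold apart in opposite directions at the 2 ages numbered 8 (0.0681%).

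**Figure D5:**
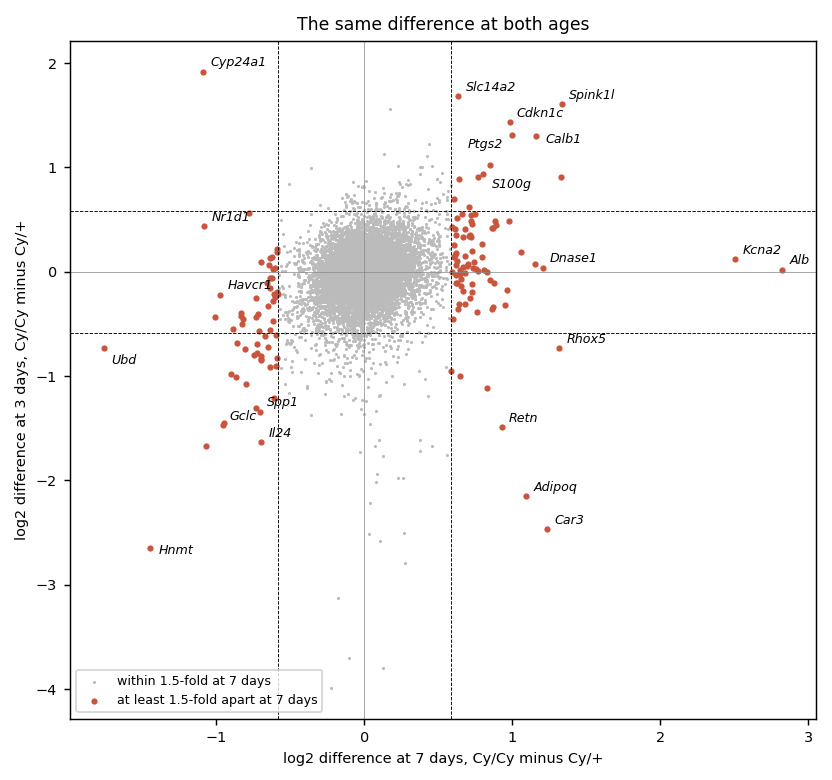
Log2 difference, Cy/Cy minus Cy/+, at 7 days (x axis) and at 3 days (y axis), 1 point per gene by its brightest probe, with dashed lines at 1.5-fold. Genes at least 1.5-fold apart at 7 days are coloured. Calb1, Cdkn1c and Spink1l lie in the corner higher at both ages, Hnmt and Gclc in the corner lower at both, and Adipoq, Retn and Car3 at the lower right.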

How the data were processed

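Kidney RNA of 7-day Cy/+ and Cy/Cy pools was measured on 2-colour Agilent arrays, and the 3-day arrays of the same genotypes served for comparison. Per the file headers the software was Agilent Feature Extraction 9.5.1.1, and probes are placed on build rn3 (product and software version differ from those in the series text). The deposited spot signals and local backgrounds are intensity values without normalization, per the file headers. The deposited log10 ratio of Cy5 over Cy3, background-subtracted and dye-normalized by the software, and its deposited error were used as an alternative and as a measure of error, and the authors' series values repeat that ratio with a median of 0 on both 7-day arrays. Flags for outliers and for signal well above background are the software's own, deposited with the other columns.

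The package limma 3.58.1 was run under R 4.3.3 (files read with data.table, version 1.17.8). Background was removed from mean spot signals by normexp with an offset of 50, using each spot's median background, before loess within each array, with control and flagged spots at weight 0. Flagged spots (125 on the Cy/+ and 129 on the Cy/Cy array) were left out and spots of a probe averaged. Of 41012 probes 28574 had a Cy5 signal well above background on at least 1 of both 7-day arrays, and 15503 of these had a gene name. Names, but no coordinates, come from RefSeq genes of the rat assembly GRCr8, where 10735 probes were found through the accession listed for them, 117 through a further accession, 5536 through the symbol and 3703 through a synonym, while 38 led to several genes and 20883 to none. A gene is represented by its brightest probe. The offset draws the ratios of dim probes towards 0, so folds of dim genes are understated. A fold written as "at least" sets the bright Cy5 signal, after loess and Aquantile scaling between arrays, against the dim probe's own signal or the lowest signal that passed as well above background on that array, whichever was higher. It leaves out the reference channel and is open to dye bias. Summaries were computed in Python 3.11.15 with pandas 2.3.3. The correction, normalization and difference were also run on data simulated from 1 array, with changes put in at known probes. The simulation held no spread between pools or positions and does not measure the error of the comparison made here.

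With 1 array for each genotype no test was made: genes past 1.5-fold and 2-fold were counted, and 44 gene lists described by counts and medians. The members and lists were chosen with earlier results of these data known, and the kallikrein and circadian clock lists after the values of this comparison had been seen. Genes named are the 12 highest and 12 lowest that kept their sign with the deposited log ratios and with Cy5 alone, the 6 highest and 6 lowest by the median over at least 3 probes on the same side, the 8 of each direction with the largest smaller difference over both ages, up to 4 of the largest differences in each list, and Anks6. Other genes are named as defining markers of a cell type or were chosen after their values were seen. Probe sequences are those of the array design, from the deposited files. A few genes that these rules would name are not reported here.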

Additional observations from a re-analysis of the deposited data

Results flagged for a closer look

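Some differences ran in opposite directions at the 2 ages, each at least 1.5-fold, with 1 array for each genotype and age. The difference between ages was not tested, and age and slide cannot be told apart. Rhox5 had a difference of 1.32 at 7 days and -0.73 at 3 days. Car3 stood at 1.24 and -2.47, Adipoq at 1.096 and -2.15, Retn at 0.93 and -1.49, and Cfd at 0.65 and -1.0002. Cyp24a1 was the only gene lower at 7 days (-1.09) and higher at 3 days (1.92). The median of the 10 adipose genes was 0.47 at 7 days and -1.40 at 3 days.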

How the results depend on the processing

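No paired analysis was possible because the labels give no replicate numbers and each genotype has 1 array at each age. For the same reason no replicate could be left out. The counts of genes at least 1.5-fold higher, 1.5-fold lower and 2-fold apart (86, 60 and 18) depended on how background and dye bias were treated. Plain background subtraction gave 193, 177 and 52, the deposited log ratios 313, 350 and 171, and Cy5 alone 142, 112 and 50. Median centring without loess gave 141 lower genes, with 81 higher and 26 at least 2-fold apart, and moved the median of all genes to -0.09. The other alternatives (no background correction, both channels above background, no filter on dim probes, the median over probes, flagged spots kept) stayed within 1.5 times these counts. Of the 86 higher genes 86 were also past 1.5-fold with plain subtraction, 86 with the deposited log ratios, 80 with Cy5 alone, 68 with median centring and 67 with the median over probes. Of the 60 lower genes these were 60, 60, 52, 60 and 50.

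The highest and lowest genes named were picked from those that kept their sign with the deposited log ratios and with Cy5 alone. A turn of these genes under either of those settings was therefore excluded by the choice. Of 62 named genes past 1.5-fold, these included, 0 turned direction under any alternative run. Short of 1.5-fold were 10 with the median over probes (Alb, 0.50, Calb1, 0.41, Ptgs2, 0.42, Slc4a1, 0.26, Ret, -0.27, Fabp1, 0.40, Aurkb, -0.42, Chordc1, 0.56, Sfrp2, 0.55, and Slc34a2, -0.55), 5 with median centring, 4 with Cy5 alone and 1 without background correction, and 6 were not measured when both channels had to be above background on both arrays. The collecting duct principal cell list turned from 0.11 to -0.0036 with median centring, and the gluconeogenesis list from 0.11 to -0.0245 with the median over probes. The number of arrays limits every value here, and signal over background limits the dimmest genes most.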

Other observations

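Nr1d1, the clock repressor Rev-erb alpha, stood apart from the other genes of the circadian clock. In a list of 15 clock genes written after its value had been seen, Nr1d1 had a difference of -1.08 (1.27 in Cy/+ and 0.19 in Cy/Cy, 1 probe), and it was the only member past 1.5-fold. The other 14 lay between -0.30 for Per1 and 0.16 for Cry1, with Dbp at -0.06, Nr1d2 at -0.24, Per2 at 0.15 and Bmal1 at 0.00. At 3 days Nr1d1 had a difference of 0.44.

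The following 5 genes were picked because they were high in Cy/Cy at 7 days, and stand for no gene class. Rbm5, a splicing regulator, was at -0.81 in Cy/+ and 0.02 in Cy/Cy (0.83; 0.00 in size at 3 days). Clk1, a kinase of splicing factors, was at -1.17 and -0.47 (0.70; 0.08 at 3 days). Luc7l was at -0.82 and -0.16 (0.66; 0.55 at 3 days), and Chd1, a chromatin remodeller, at -0.79 and -0.03 (0.76; -0.39 at 3 days). Slc14a2, the urea transporter of the inner medulla, was at -0.50 and 0.13 (0.63) at 7 days and had a difference of 1.68 at 3 days.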
